A study of Mus musculus with 22 samples.

Results

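Cardiomyocytes, the contracting muscle cells of the heart, were set against cardiac fibroblasts, the connective tissue cells that lie between them. Both were taken from sedentary mice, and all genes were compared. The comparison uses 3 cardiomyocyte and 3 fibroblast libraries of the 22 libraries in the series. All 6 came from male wild-type C57BL/6 mice of 10 to 14 weeks of age, with no operation and no exercise. Libraries 1 and 2 of each cell type carry a number in their titles; library 3 of each carries a date and "wt", and its condition field also reads sedentary. Each cardiomyocyte library has a fibroblast library of the same number or date. The labels do not say whether libraries came from separate animals, so each p-value rests on the spread among these libraries, which may be technical. The other 16 libraries are fibroblasts in 6 groups: 3 days after a sham operation, 3 and 10 days after TAC, 5 days after MI, and after 4 and 10 days of swimming; TAC and MI are the labels' abbreviations.

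A cardiomyocyte shortens when calcium released from the sarcoplasmic reticulum lets myosin pull on actin in the sarcomere, and most of its ATP comes from mitochondria that burn fatty acids. A cardiac fibroblast makes and remodels the collagen-rich matrix that carries the force of these cells. It also secretes growth factors, cytokines and chemokines, which makes it one of the main signalling cells of the heart.

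Messenger RNA was sequenced and given as FPKM, fragments scaled to transcript length and to sequencing depth, for 23359 genes. Of these, 9245 reached 1 FPKM in at least 2 of the 6 libraries and were tested. Total FPKM, divided by 1000, was 198, 180 and 198 in cardiomyocytes, against 96.8, 85.1 and 119 in fibroblasts. No read counts were given, so absolute depth is unknown. The smallest FPKM steps of single-transcript genes placed the relative depth between 1.0 and 1.39 in cardiomyocytes and between 1.95 and 3.67 in fibroblasts, so low values are coarser in cardiomyocytes. Libraries of one cell type resembled each other (Pearson's r of log2 values across genes, 0.974 to 0.982 in cardiomyocytes and 0.937 to 0.976 in fibroblasts) more than libraries of different types (0.378 to 0.492). Genes are not independent replicates in these coefficients. Expression leaned more toward short transcripts in cardiomyocytes: the slope of log2 expression on transcript length lay between -0.67 and -0.60 per doubling, against -0.28 to -0.17 in fibroblasts. Values with this trend and that on GC content removed are given where they matter.

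The labels were checked against marker genes. Myh6 (chr14:54941921-54966607, mm10), the alpha myosin heavy chain of adult heart muscle, had 374, 288 and 452 FPKM in cardiomyocytes, against 10.4, 2.38 and 12.4 FPKM in fibroblasts. Tnnt2 (chr1:135836334-135852268), cardiac troponin T, had 872, 689 and 751 FPKM in cardiomyocytes, against 5.67, 1.76 and 9.997 FPKM in fibroblasts. On the other side, Pdgfra (chr5:75152291-75198204), a growth factor receptor of mesenchymal cells, had 0.843, 0.886 and 0.610 FPKM in cardiomyocytes, against 10.9, 11.2 and 8.44 FPKM in fibroblasts. The transcription factor Tcf21 (chr10:22817275-22820128), needed to form cardiac fibroblasts, had 4.10, 2.48 and 1.31 FPKM in cardiomyocytes, against 31.8, 16.9 and 43.2 FPKM in fibroblasts. No library went against its label at any of these 4 genes. All 7 cardiomyocyte markers were called higher and all 8 fibroblast markers lower in cardiomyocytes, at a limma Benjamini-Hochberg adjusted p of 6.72e-05 or less. Over all genes tested, 41.1% were called higher and 37.2% lower.

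**Figure D1:**
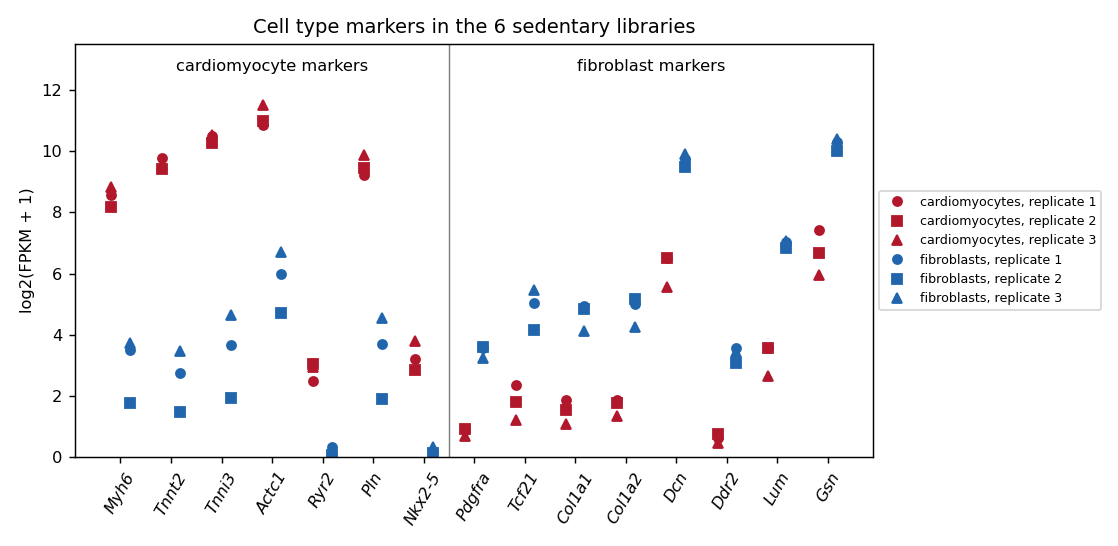
log2(FPKM + 1) of 7 cardiomyocyte markers (left of the line) and 8 fibroblast markers (right of it) in each sedentary library. Red symbols are the 3 cardiomyocyte libraries and blue symbols the 3 fibroblast libraries. No marker overlaps between the cell types, and fibroblast library 2 has the lowest cardiomyocyte transcripts of the 3 fibroblast libraries.

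Each preparation held transcripts of the other cell type. Over the 7 cardiomyocyte markers, fibroblast libraries 1, 2 and 3 held a median of 1.62%, 0.642% and 2.90% of the mean cardiomyocyte level. Over the 8 fibroblast markers, cardiomyocyte libraries 1, 2 and 3 held 10.1%, 8.47% and 4.85% of the mean fibroblast level. In bulk samples, fewer cells of a type and less RNA per cell cannot be told apart. Of markers of other cells, 8 of 9 tested macrophage markers were lower in cardiomyocytes, with a summed level of 61.9 to 189 FPKM in cardiomyocytes and 438 to 602 in fibroblasts. The pan-leukocyte gene Ptprc had 0.389, 0.285 and 0.170 FPKM in cardiomyocytes, against 8.59, 3.58 and 5.97 FPKM in fibroblasts. Of 10 endothelial markers, 2 were called higher and 4 lower (0 and 6 on libraries scaled to equal sums). These marker counts stand beside 41.1% higher and 37.2% lower over all genes. The endothelial FPKM sums were 51.2 to 77.9 in cardiomyocytes and 64.3 to 94.0 in fibroblasts. Pecam1, an adhesion protein of endothelial cells, had 6.39, 10.1 and 9.63 FPKM in cardiomyocytes, against 11.7, 16.96 and 14.7 FPKM in fibroblasts. It was called lower, but not without cardiomyocyte library 1 (limma adjusted p = 0.127) or without the length and GC trend (0.0581). Of 8 tested pericyte and smooth muscle markers, 5 were called higher and 2 lower, with sums of 188 to 339 FPKM in cardiomyocytes and 36.2 to 53.3 in fibroblasts. Most of the cardiomyocyte sum was Acta2, whose sequence is close to that of the cardiac actins, with 140.3, 164 and 272 FPKM in cardiomyocytes, against 10.3, 5.04 and 16.5 FPKM in fibroblasts. Rgs5, a pericyte gene, had 30.05, 50.8 and 40.02 FPKM in cardiomyocytes, against 12.9, 18.3 and 22.7 FPKM in fibroblasts, and its call as higher was lost when libraries were scaled to equal sums (limma adjusted p = 0.462). Kcnj8 had 6.56, 7.88 and 7.44 FPKM in cardiomyocytes, against 1.54, 2.58 and 1.52 FPKM in fibroblasts (1.54 ± 0.19). Abcc9 (1.39 ± 0.23) and Mcam (0.41 ± 0.16) were also called higher. On equal sums 3 of these markers were higher and 2 lower, beside 2575 higher and 5013 lower of all 9245 genes. The 2 called lower on FPKM were Pdgfrb and Notch3 (-0.40). Pdgfrb had 1.19, 1.42 and 1.36 FPKM in cardiomyocytes, against 4.65, 5.00 and 3.30 FPKM in fibroblasts. Lymphocyte, Schwann cell, adipocyte and epicardial markers did not reach the filter; the highest sums of these 4 lists were 0.898 FPKM in cardiomyocytes and 4.203 in fibroblasts. The part of these other cells in the differences below was not tested.

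The cell types differed at most of the genes measured. In cardiomyocytes, 3804 genes were called higher (41.1% of those tested) and 3440 lower (37.2%) at an adjusted p under 0.05, and 2001 did not pass. A difference of at least 2 log2 units was found for 1144 higher (12.4%) and 725 lower genes (7.84%). The 3 values of each cell type did not overlap for 3933 genes that were higher (42.5%) and 3487 that were lower (37.7%) in cardiomyocytes. The median over all genes tested was 0.059. In the authors' deposited table, which sets cardiomyocyte controls against fibroblasts named as swim controls without listing their libraries, 4087 genes were higher and 3763 lower in cardiomyocytes at a q-value under 0.05, and none of the genes called in both analyses had opposite directions. Which genes count as higher depends on the scale for small differences. Scaling every library to the same sum moved the median of all genes to -0.59, and the share of calls that were higher to 33.9%, against 52.5% on FPKM as deposited, with 2575 higher and 5013 lower.

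**Figure D2:**
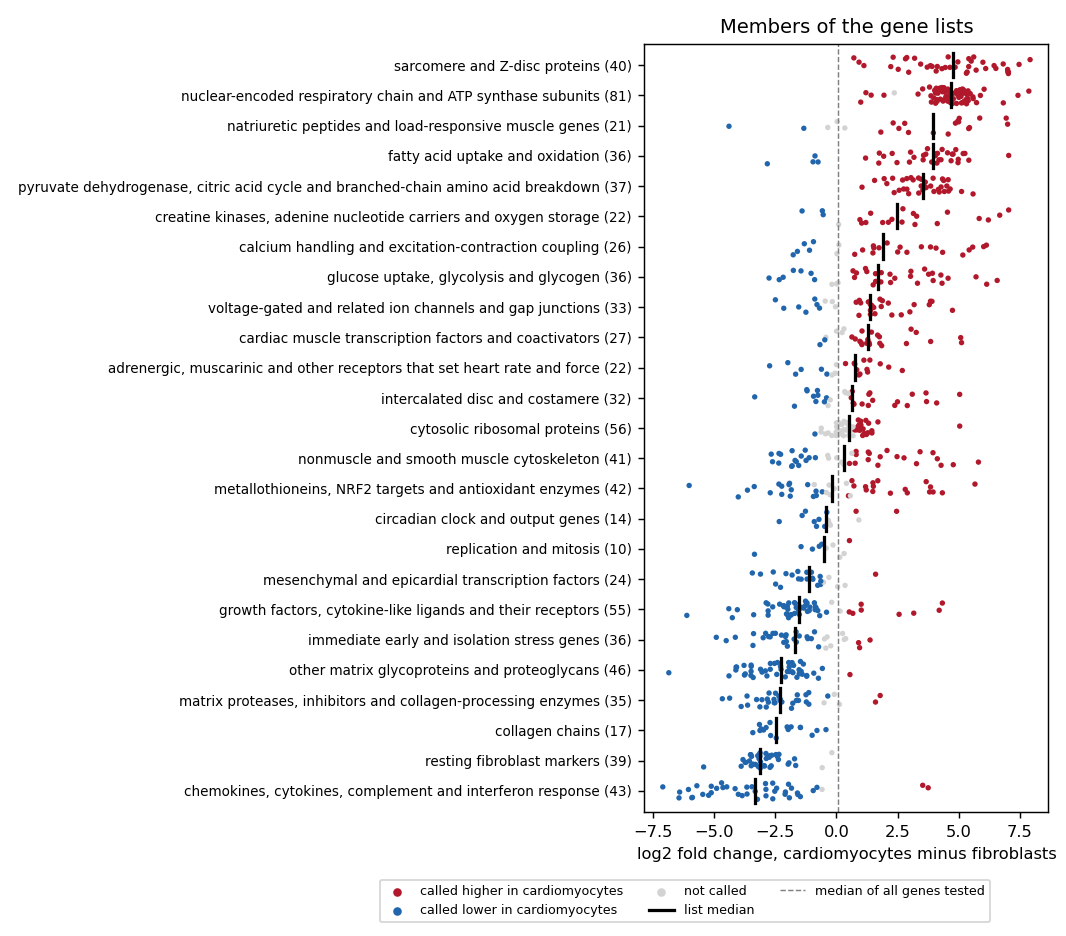
log2 fold change of every tested member of 25 gene lists, with the number tested in brackets. Each point is a gene, red where called higher and blue where called lower in cardiomyocytes and grey where not called; black bars are list medians and the dashed line is the median of all genes tested, 0.059. Sarcomere and respiratory chain genes lie at the upper end and fibroblast, collagen and chemokine genes at the lower end.

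Sarcomere genes had the highest median of the lists. All 40 tested members, of 42 listed, were called higher, against 41.1% of all genes tested, and 37 of them by at least 2 log2 units, with a median of 4.75. Myl2, the ventricular regulatory light chain of myosin, had 7928, 5290.2 and 5959.8 FPKM in cardiomyocytes, against 29.7, 6.86 and 72.1 FPKM in fibroblasts, and its log2 fold change of 7.92 ± 0.74 (SE) was the largest of the named rises. Myl3, the essential light chain, had 3089, 2205 and 2753 FPKM in cardiomyocytes, against 16.1, 3.69 and 41.1 FPKM in fibroblasts. The thin filament genes followed the same pattern: troponin C (Tnnc1) had 1379, 1012 and 1189 FPKM in cardiomyocytes, against 9.71, 2.69 and 17.6 FPKM in fibroblasts. For these 3 genes the lowest cardiomyocyte value was 53.7 to 73.3 times the highest fibroblast value, and fibroblast library 2 was the lowest of its group. Tnni3, the inhibitory troponin of adult heart, rose by 7.01 ± 0.61, Tnnt2 by 7.03 ± 0.45 and the tropomyosin gene Tpm1 by 5.71 ± 0.37. Csrp3, a Z-disc protein, rose by 7.001 ± 0.49, and Myoz2, which anchors calcineurin at the Z-disc, by 6.52 ± 0.53. Actn2, the alpha-actinin that crosslinks actin there, had 71.9, 67.4 and 106 FPKM in cardiomyocytes, against 4.35, 2.76 and 4.49 FPKM in fibroblasts. The smallest rise was that of Flnc, the muscle filamin, with 4.47, 3.59 and 6.73 FPKM in cardiomyocytes, against 3.38, 2.37 and 1.98 FPKM in fibroblasts (0.71 ± 0.23, limma adjusted p = 0.0158). This call was lost without cardiomyocyte library 3 (adjusted p = 0.0644), and Flnc turned to -0.024 on equal sums. Values of Myh6 (374, 288 and 452 FPKM in cardiomyocytes) and Myh7 (306, 236 and 374 FPKM in cardiomyocytes) kept nearly the same ratio in every library. These neighbouring genes are almost identical in sequence, so their split is uncertain. The same holds for the actins: Actc1 had 1835, 2008 and 2931 FPKM in cardiomyocytes, against 61.8, 25.3 and 103 FPKM in fibroblasts, and Acta1 1397, 1449.9 and 2075 FPKM in cardiomyocytes, against 72.3, 38.7 and 107 FPKM in fibroblasts. Without the length and GC trend the sarcomere median was 4.49, with 39 members called higher and none lower.

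Promoters of the sarcomere list are shown because these genes rose together. RefSeq windows of 300 bases on GRCm38.p6, from 250 bases before an annotated start to 50 bases after it, were found for 33 of the 40 tested members, as 46 windows. They were searched on both strands for the MCAT motif (CATTCC), the GATA motif (AGATAA), the TATA motif (TATAAA), the MEF2 site and the CArG box, and matches are in capitals. Positions are counted from the start of the transcript in that annotation.
Myl3 (chr9:110763428-110763727, plus strand): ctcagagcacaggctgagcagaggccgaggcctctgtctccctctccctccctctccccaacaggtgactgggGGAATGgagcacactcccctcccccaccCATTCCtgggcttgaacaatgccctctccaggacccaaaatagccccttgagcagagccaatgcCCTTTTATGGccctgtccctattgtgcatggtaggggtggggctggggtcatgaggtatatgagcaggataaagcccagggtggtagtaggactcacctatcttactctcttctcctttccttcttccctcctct
Tnnt2 (chr1:135836084-135836383, plus strand): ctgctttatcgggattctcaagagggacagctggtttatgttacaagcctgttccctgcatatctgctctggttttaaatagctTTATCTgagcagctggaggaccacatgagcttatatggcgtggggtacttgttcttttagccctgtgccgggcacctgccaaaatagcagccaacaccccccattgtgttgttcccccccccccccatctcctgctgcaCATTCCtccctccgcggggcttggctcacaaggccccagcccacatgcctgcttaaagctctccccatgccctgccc
Myoz2 (chr3:123034938-123035237, minus strand): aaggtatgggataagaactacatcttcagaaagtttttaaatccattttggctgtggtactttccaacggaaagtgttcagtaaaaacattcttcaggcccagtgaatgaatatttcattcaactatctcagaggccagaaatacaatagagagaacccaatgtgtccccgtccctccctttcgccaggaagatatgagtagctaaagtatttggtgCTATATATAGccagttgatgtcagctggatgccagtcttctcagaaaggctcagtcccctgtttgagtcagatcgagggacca
In Myl3 the capitals mark an MCAT match on each strand, at -177 and -149, and a CArG box at -85. In Tnnt2 they mark a GATA match on the other strand at -166 and an MCAT match at -27. In Myoz2 they mark a MEF2 site at -33. A second Tnnt2 window, at chr1:135836739-135837038, held no match to any of these motifs. A CArG box was present in 21.7% of the sarcomere windows, against 1.63% of all 32851 mouse promoter windows. MEF2 sites were present in 10.9% against 0.557%, and MCAT matches in 32.6% against 14.7%. GATA matches were present in 19.6% against 11.2%, and TATA matches in 15.2% against 13.6%. The windows of genes tested are the nearer background. Their shares were 1.56% for the CArG box, 0.562% for the MEF2 site, 12.5% for MCAT, 6.67% for GATA and 8.09% for TATA. The CArG box was also present in 13.6% of the 44 windows of immediate early and isolation stress genes, most of which were lower. Over the windows of all genes higher by at least 2 log2 units, these shares were 2.44% for the CArG box, 1.85% for the MEF2 site and 14.7% for MCAT. A match is a stretch of letters and not a measured binding site.

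**Figure D3:**
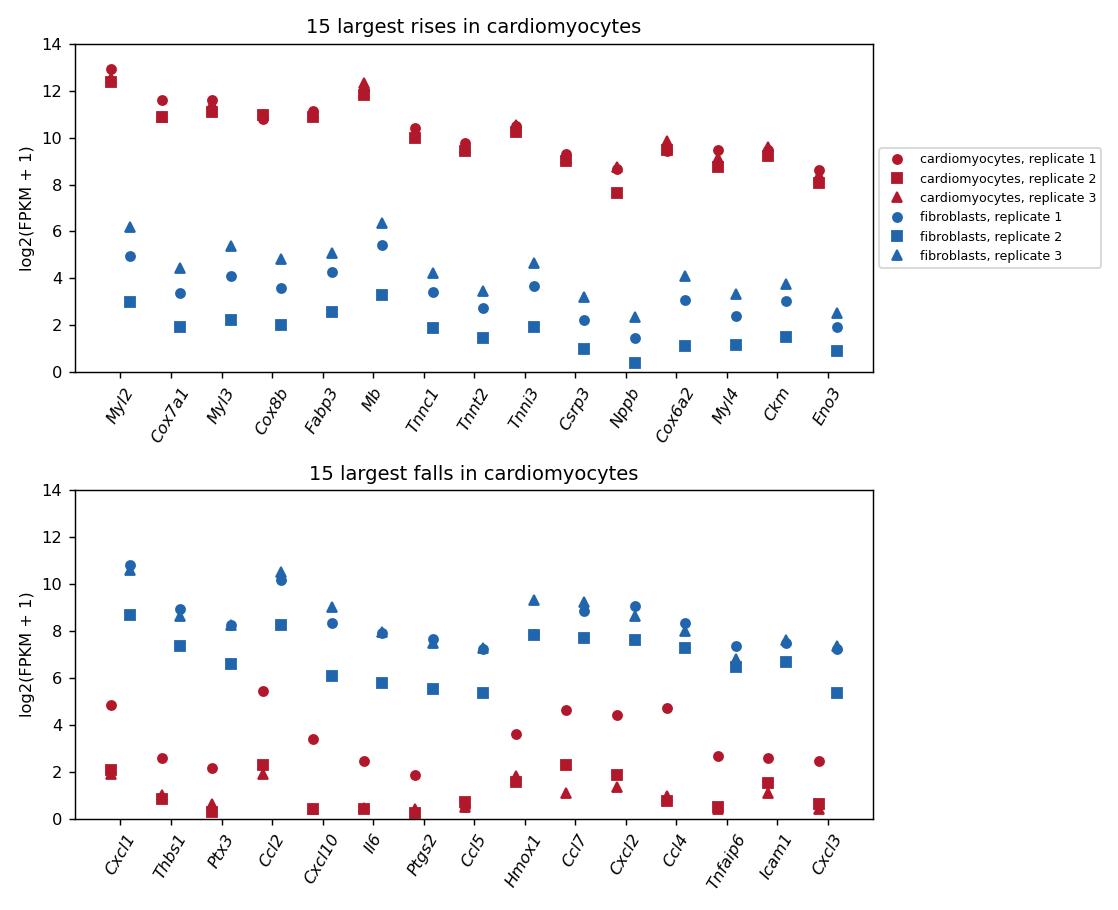
log2(FPKM + 1) in each library for the 15 largest rises (top) and the 15 largest falls (bottom) in cardiomyocytes, among called genes at a mean of at least 5 FPKM in the higher cell type. Red symbols are cardiomyocyte and blue symbols fibroblast libraries. Fibroblast library 2 is the lowest of its type for all 15 rises and all 15 falls, and cardiomyocyte library 1 is the highest of its type for 14 of the 15 falls.

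Genes of calcium handling were mostly higher, with 19 called higher and 5 lower of 26 tested, beside 41.1% and 37.2% over all genes. Pln, the brake of the sarcoplasmic reticulum calcium pump, had 591, 692 and 945 FPKM in cardiomyocytes, against 11.9, 2.74 and 22.3 FPKM in fibroblasts. The pump itself, Atp2a2, had 471, 491 and 681 FPKM in cardiomyocytes, against 32.3, 13.8 and 37.5 FPKM in fibroblasts, and the calcium buffer Casq2 had 125, 119 and 135 FPKM in cardiomyocytes, against 1.84, 0.795 and 2.74 FPKM in fibroblasts. None of these 3 overlapped between cell types, and fibroblast library 2 was again the lowest. S100a1, a calcium sensor that enhances the pump, rose by 6.02 ± 0.28, the junctional protein Jph2 by 3.85 ± 0.19, and the calcium release channel Ryr2 by 2.60 ± 0.17. Lower in cardiomyocytes were the plasma membrane calcium pumps Atp2b1 (-1.77) and Atp2b4 (-1.59), the store-operated calcium sensor Stim1 (-1.10), the inositol trisphosphate receptor Itpr1 (-0.94) and the membrane-bending protein Bin1 (-1.31). The list thus held opposite calls for its release and pump genes: Ryr2 and Atp2a2 higher, Itpr1 and Atp2b1 lower.

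Ion channels and gap junction genes split in the same way, with 23 called higher and 7 lower of 33. The shares over all genes were 41.1% and 37.2%. Scn7a, a relative of the sodium channel genes, had 0.372, 0.516 and 0.394 FPKM in cardiomyocytes, against 7.84, 6.29 and 7.05 FPKM in fibroblasts, and Piezo1, a stretch-gated channel, had 0.342, 0.383 and 0.271 FPKM in cardiomyocytes, against 5.98, 4.17 and 4.74 FPKM in fibroblasts. Neither gene overlapped between cell types, and both lay on the fibroblast side. Potassium channel genes higher in cardiomyocytes included Kcnj11 (3.18 ± 0.20), Kcnj5 (2.27 ± 0.12) and Kcnk3 (3.80 ± 0.19), while Kcnk2 was lower (-0.88). Gja1, which encodes the main ventricular gap junction protein, had 27.2, 26.9 and 46.6 FPKM in cardiomyocytes, against 55.8, 33.9 and 47.9 FPKM in fibroblasts. The ranges of Gja1 overlapped, and its difference of -0.46 ± 0.30 did not pass (limma adjusted p = 0.184). It passed without fibroblast library 2 (0.042) and on equal sums (-1.38, adjusted p = 0.000631).

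At the intercalated disc and costamere, which join cardiomyocytes end to end and to the matrix, 17 of 32 genes were called higher and 10 lower. Over all genes, 41.1% were called higher and 37.2% lower. The desmosome genes Dsp (3.66 ± 0.20) and Pkp2 (2.90 ± 0.16) and the N-cadherin gene Cdh2 (3.10 ± 0.20) were higher. Among the sarcoglycans, Sgca had 12.3, 12.9 and 20.2 FPKM in cardiomyocytes, against 0.254, 0.0443 and 0.401 FPKM in fibroblasts, whereas Sgce, its more widely expressed relative, had 1.81, 2.43 and 1.54 FPKM in cardiomyocytes, against 8.91, 7.43 and 9.33 FPKM in fibroblasts. Integrins divided: Itga7, a laminin receptor of muscle, rose by 2.39 ± 0.15, and Itga5, a fibronectin receptor, fell with 2.68, 1.51 and 2.55 FPKM in cardiomyocytes, against 40.1, 23.4 and 32.9 FPKM in fibroblasts. Itgb1, their shared beta chain, had 15.3, 19.7 and 22.5 FPKM in cardiomyocytes, against 40.5, 30.3 and 33.8 FPKM in fibroblasts, and it was called lower except without cardiomyocyte library 1 (limma adjusted p = 0.0532). The list median was 0.63 on FPKM and -0.21 when libraries were scaled to the same sum, so no direction is given for the list as a whole. Of 22 receptor and signalling genes that set heart rate and force, 13 were called higher and 6 lower, beside 41.1% higher and 37.2% lower over all genes. On equal sums the counts turned to 7 higher and 9 lower, beside 2575 higher and 5013 lower of all 9245 genes. The median turned to 0.07, against 0.74 on FPKM, so no direction is given for this list either. The muscarinic receptor gene Chrm2 rose by 2.14 ± 0.15, and the endothelin receptor gene Ednrb had 0.859, 1.17 and 1.02 FPKM in cardiomyocytes, against 10.7, 6.42 and 26.3 FPKM in fibroblasts, highest in fibroblast library 3.

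Transcription factor genes differed between the cell types. Of 27 tested cardiac factors and cofactors, 21 were called higher and 2 lower, with a median of 1.28. The shares over all genes were 41.1% higher and 37.2% lower. Nkx2-5, which specifies heart muscle, had 8.17, 6.21 and 12.8 FPKM in cardiomyocytes, against 0.146, 0.110 and 0.248 FPKM in fibroblasts. Hopx, a cofactor downstream of it, had 92.4, 91.3 and 117 FPKM in cardiomyocytes, against 1.94, 1.06 and 3.33 FPKM in fibroblasts, and Smyd1, a muscle methyltransferase, had 51.3, 49.9 and 67.0 FPKM in cardiomyocytes, against 0.635, 0.141 and 1.32 FPKM in fibroblasts. The energy metabolism regulators Esrra (3.85 ± 0.19) and Rxrg (3.26 ± 0.17) were also higher. The ranges of each of these did not overlap. Mef2a was lower in cardiomyocytes, with 4.07, 4.19 and 4.70 FPKM in cardiomyocytes, against 7.25, 5.74 and 6.25 FPKM in fibroblasts, and Mef2d, at 5.36, 4.99 and 6.56 FPKM in cardiomyocytes, against 6.09, 5.84 and 4.87 FPKM in fibroblasts, did not pass; both belong to the family that binds MEF2 sites. The call for Mef2a was lost without cardiomyocyte library 1 (limma adjusted p = 0.104), without cardiomyocyte library 2 (0.108) and without fibroblast library 1 (0.126). It was also lost without the length and GC trend (-0.27, adjusted p = 0.111), and on equal sums Mef2d was called lower (-0.81). Of 39 listed mesenchymal and epicardial factors, 24 reached the filter, and of these 19 were called lower and 1 higher. Members under 1 FPKM in all libraries of one cell type passed the filter only through the other, which largely set their direction. Nkx2-5, Plagl1, Zeb2 and Scx are such members. Plagl1, a zinc finger factor, had 0.374, 0.582 and 0.310 FPKM in cardiomyocytes, against 16.7, 11.5 and 15.3 FPKM in fibroblasts, and Zeb2, a factor of mesenchymal transition, had 0.416, 0.572 and 0.528 FPKM in cardiomyocytes, against 11.02, 6.01 and 7.66 FPKM in fibroblasts. Runx1 fell by 2.06 and Sox9 by 1.81 on the log2 scale. The exception was Scx, a tendon factor, with 2.52, 2.44 and 2.24 FPKM in cardiomyocytes, against 0.0909, 0.207 and 0.0641 FPKM in fibroblasts.

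Oxidative phosphorylation separated the cell types about as far as contraction did. Of 81 nuclear-encoded subunits of the respiratory chain and ATP synthase, 80 were called higher in cardiomyocytes, against 41.1% of all genes, and none lower. Of the 81, 76 were called higher by at least 2 log2 units, against 12.4% of all genes, and the median was 4.67. The sum over the 81 subunits was 41070, 33263 and 36796 FPKM in cardiomyocytes, against 1039, 854 and 1647 FPKM in fibroblasts. Subunits made mainly in striated muscle led the list: Cox7a1 had 3079, 1913 and 1899.6 FPKM in cardiomyocytes, against 9.41, 2.83 and 21.0 FPKM in fibroblasts, and Cox8b had 1796, 1984 and 1983 FPKM in cardiomyocytes, against 11.1, 3.07 and 27.3 FPKM in fibroblasts. Subunits used by all cells were also higher. Cox4i1, of complex IV, had 1604, 1075 and 1330.0 FPKM in cardiomyocytes, against 37.7, 29.0 and 64.9 FPKM in fibroblasts. Ndufb8, of complex I, had 1240.0, 752 and 779 FPKM in cardiomyocytes, against 11.5, 8.64 and 20.3 FPKM in fibroblasts, and Uqcrq, of complex III, had 1454, 1159 and 1133 FPKM in cardiomyocytes, against 22.7, 12.8 and 38.0 FPKM in fibroblasts. For these 5 subunits the lowest cardiomyocyte value was 16.6 to 90.3 times the highest fibroblast value. Cox6a1 (0.995 ± 0.24) and Cox8a (1.42 ± 0.26) had some of the smallest rises, and Cox6a1 did not pass on equal sums (limma adjusted p = 0.682) or without the length and GC trend (0.771). Ndufs5, listed at 4.67, 100.7 and 0 FPKM in cardiomyocytes, against 0.000663, 3.18 and 0.000687 FPKM in fibroblasts, was erratic within each type and did not pass, except without cardiomyocyte library 3 (limma adjusted p = 0.0458). Mitochondrially encoded genes are not in the table.

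Transcripts of these subunits are short, and length weighed differently in the 2 cell types, so the list was also read on other scales and against other fibroblasts. With the length and GC trend removed, 78 subunits were called higher and none lower, with a median of 4.04; on equal sums the counts were 79 and 0 and the median 3.77. Fibroblasts after TAC and swimming had length slopes of -0.78 to -0.46, close to those of cardiomyocytes. Against them, the median difference was 2.94 for both 3 day and 10 day TAC, 2.92 for 4 day and 3.45 for 10 day swim. Against sham and MI fibroblasts, with slopes of -0.23 to -0.20, it was 4.55 and 4.38. All of these differences share the 3 cardiomyocyte libraries and were not tested. The 81 subunits summed to a median of 4429 FPKM in 10 day TAC and 4105 FPKM in 4 day swim fibroblasts, against 1039 in sedentary ones. Ribosomal protein genes, also short (median 757 bases, against 680 for the subunits), summed to 19554 and 21494 FPKM in these groups, against 4400 in sedentary ones. All genes tested summed to 151770 and 202270 FPKM, against 95094. The cause of the higher subunit sums was not tested.

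Fuel genes behaved like the respiratory chain. In fatty acid uptake and oxidation, 32 of 36 genes were called higher and 4 lower, beside 41.1% and 37.2% over all genes. The median of the 36 was 3.96. Fabp3, the heart fatty acid binding protein, had 2235, 1872 and 2113 FPKM in cardiomyocytes, against 18.2, 4.84 and 33.2 FPKM in fibroblasts. Acadm, which starts the oxidation of medium-chain fatty acids, had 142, 137 and 165 FPKM in cardiomyocytes, against 3.17, 2.05 and 4.33 FPKM in fibroblasts, and the trifunctional protein subunit Hadhb had 222, 227 and 287 FPKM in cardiomyocytes, against 6.71, 4.59 and 9.96 FPKM in fibroblasts. These values did not overlap between cell types. The 4 genes that fell were Acsl4 (-2.82 ± 0.28), Plin2 (-0.96 ± 0.29), Cpt1a (-0.88 ± 0.14) and Ucp2 (-0.75 ± 0.18). Plin2 missed the threshold without cardiomyocyte library 2 (limma adjusted p = 0.0526). All 37 genes of pyruvate entry, the citric acid cycle and branched-chain amino acid breakdown were called higher, with a median of 3.53, led by Idh2 (5.59 ± 0.26) and Mpc2 (5.12 ± 0.26). Oxct1, which lets tissue burn ketone bodies, had 117, 106 and 112 FPKM in cardiomyocytes, against 4.68, 3.38 and 5.27 FPKM in fibroblasts.

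Energy storage and glycolysis were less uniform. Myoglobin (Mb), the oxygen store of muscle, had 4211, 3655 and 5188 FPKM in cardiomyocytes, against 42.2, 8.87 and 80.7 FPKM in fibroblasts. Ckm, muscle creatine kinase, had 718, 589.9 and 769 FPKM in cardiomyocytes, against 7.08, 1.83 and 12.4 FPKM in fibroblasts, and Slc25a4, which exchanges ATP for ADP across the inner mitochondrial membrane, had 1985, 1579 and 2133 FPKM in cardiomyocytes, against 32.4, 18.7 and 53.5 FPKM in fibroblasts. Of the 22 genes of this group, 18 were called higher and 3 lower, beside 41.1% and 37.2% over all genes. In glucose uptake, glycolysis and glycogen metabolism, 26 of 36 were called higher and 7 lower, with a median of 1.71. Enolase 3 (Eno3) rose by 6.57 ± 0.39, Ldhb by 6.15 ± 0.36 and muscle phosphorylase (Pygm) by 4.57 ± 0.29. Among the 7 that fell, Pfkfb3, which makes the activator of phosphofructokinase, had 0.446, 0.433 and 0.328 FPKM in cardiomyocytes, against 7.88, 7.18 and 10.6 FPKM in fibroblasts. Hexokinase 2 (Hk2) had 8.05, 5.66 and 9.22 FPKM in cardiomyocytes, against 35.96, 22.3 and 26.8 FPKM in fibroblasts. G6pdx (-1.45 ± 0.14) and Pgd (-2.34 ± 0.45), the oxidative enzymes of the pentose phosphate pathway, also fell.

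Many of these enzymes exist as a muscle form and a broadly used relative, and the share of the muscle form in the pair was taken as a measure that does not depend on library scaling. Of 30 pairs, the muscle member was called higher in cardiomyocytes in 28, against 41.1% of all genes. In 10 pairs the relative was called lower, in 14 it was called higher too, in 3 it did not pass, and in 1 it was not tested. The share did not overlap between cell types and was higher in cardiomyocytes in 28 pairs. Among all single genes, 42.5% were higher in cardiomyocytes without overlap. With 3 against 3 libraries an exact permutation test, two-sided, cannot go below p = 0.1 for a single pair. Cpt1b, the carnitine transferase that admits fatty acids to muscle mitochondria, made up 95.9% ± 0.426 in cardiomyocytes and 11.5% ± 10.04 in fibroblasts of Cpt1b and Cpt1a (SD, n = 3 each). Slc2a4, the insulin-regulated glucose transporter, made up 91.3% ± 0.421 in cardiomyocytes and 9.60% ± 1.73 in fibroblasts of Slc2a4 and Slc2a1. In both pairs the majority member differed between cell types. Of the adenylyl cyclases, Adcy5 made up 88.3% ± 2.76 in cardiomyocytes and 12.4% ± 2.42 in fibroblasts of Adcy5 and Adcy7. In the ribosome, Rpl3l, a striated muscle form of Rpl3, made up 64.1% ± 3.09 in cardiomyocytes and 0.949% ± 0.452 in fibroblasts, and Rpl3 itself fell (-0.88 ± 0.25). Cytochrome oxidase and creatine kinase pairs changed by a rise of both members: Ckm made up 88.7% ± 0.439 in cardiomyocytes and 31.2% ± 14.5 in fibroblasts, while Ckb, its partner, also rose (2.68 ± 0.26). Lactate dehydrogenase went the same way, with Ldhb at 73.8% ± 1.31 in cardiomyocytes and 15.6% ± 4.77 in fibroblasts of Ldhb and Ldha. The smallest of the 28 differences was in the alpha-catenins, where Ctnna3 made up 8.41% ± 1.27 in cardiomyocytes and 2.24% ± 0.538 in fibroblasts of Ctnna3 and Ctnna1. Shares ran the other way for Ank2 of Ank2 and Ank3 (70.4% ± 2.17 in cardiomyocytes and 95.9% ± 1.18 in fibroblasts), since Ank3 was at 0.602, 0.808 and 0.964 FPKM in cardiomyocytes and 0.0299, 0.0455 and 0.0269 FPKM in fibroblasts. Ank3 did not reach the filter, and the log2 ratio of the pair, with 1 FPKM added to each value, differed by -0.14 (exact permutation test, p = 0.4). Fkbp1b of Fkbp1b and Fkbp1a was also lower, at 0.495% ± 0.107 in cardiomyocytes and 1.06% ± 0.285 in fibroblasts. But Fkbp1b had only 0.135, 0.134 and 0.142 FPKM in cardiomyocytes, against 0.275, 0.359 and 0.354 FPKM in fibroblasts. It did not reach the filter, and the log2 ratio of this pair differed by -0.074 (exact permutation test, p = 0.7). The enolase pair is uncertain because Eno1 was listed near 0 in all 6 libraries. Cox8b made up 94.2% ± 0.450 in cardiomyocytes and 21.0% ± 12.9 in fibroblasts of Cox8b and Cox8a, and its share was lowest in fibroblast library 2, which also held the least of the cardiomyocyte markers.

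**Figure D4:**
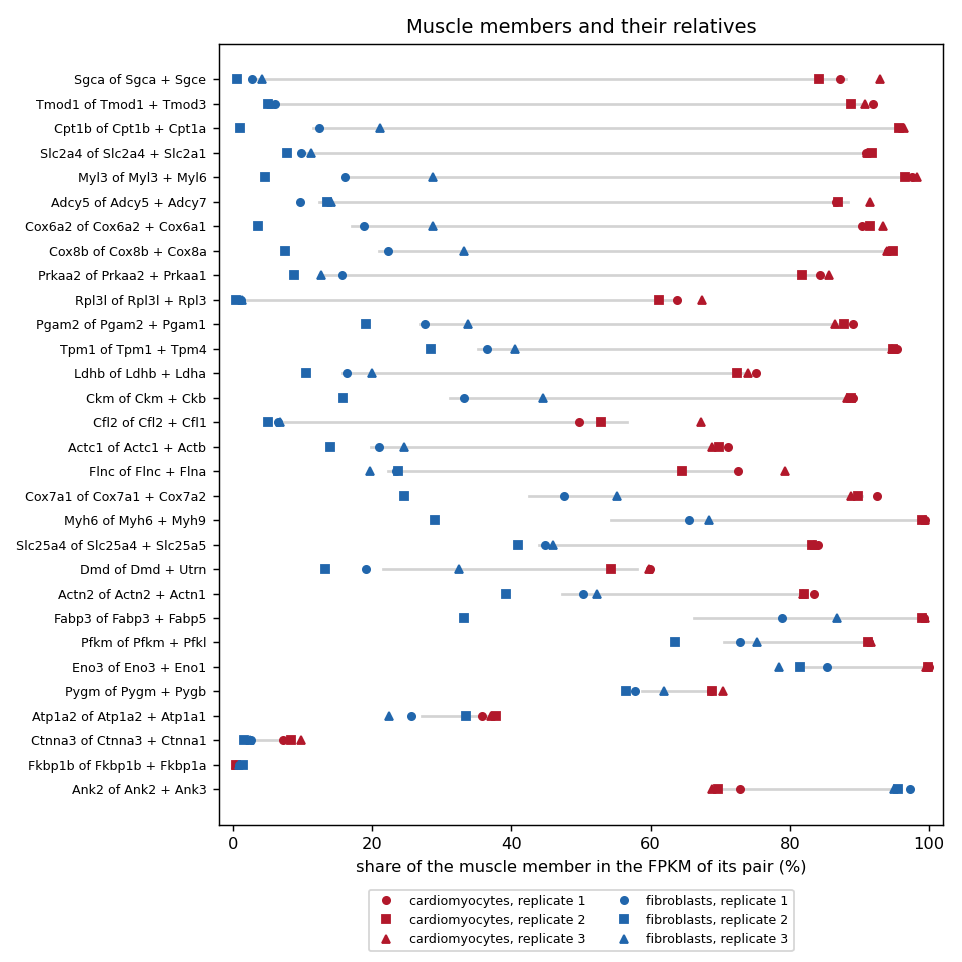
Share of the muscle member in the summed FPKM of each of 30 gene pairs, in percent, ordered by the difference between cell types. Red symbols are the 3 cardiomyocyte libraries, blue symbols the 3 fibroblast libraries, and grey lines join the means. The share is higher in cardiomyocytes without overlap in 28 pairs and lower in 2.

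Fibroblast genes fell as a block in cardiomyocytes. Of 39 genes of resting cardiac fibroblasts, 37 were called lower, against 37.2% of all genes, and none higher, with a median of -3.10. Dcn, the collagen-binding proteoglycan decorin, had 90.4, 90.2 and 45.9 FPKM in cardiomyocytes, against 850.3, 721 and 952 FPKM in fibroblasts. Gelsolin (Gsn), an actin-severing protein, had 169.6, 101.8 and 61.7 FPKM in cardiomyocytes, against 1268, 1033 and 1362 FPKM in fibroblasts, and lumican (Lum) had 10.8, 10.9 and 5.31 FPKM in cardiomyocytes, against 129, 114 and 132 FPKM in fibroblasts. No library of one type reached the range of the other, and cardiomyocyte library 3 was the lowest of its group for all 3 genes. The largest fall of the list was in Gfpt2, which feeds amino sugar synthesis, with 4.92, 0.784 and 0.508 FPKM in cardiomyocytes, against 144, 66.2 and 129.8 FPKM in fibroblasts. Ly6a (48.6, 69.3 and 54.9 FPKM in cardiomyocytes, against 98.8, 79.0 and 80.9 FPKM in fibroblasts) and Htra1 (9.10, 9.52 and 13.8 FPKM in cardiomyocytes, against 12.5, 11.4 and 12.9 FPKM in fibroblasts) did not pass, although Ly6a did without fibroblast library 2 (limma adjusted p = 0.0453) or 3 (0.0353) and both did on equal sums (0.000241 and 0.000618). Vim, the intermediate filament of mesenchymal cells, had 44.1, 40.9 and 38.2 FPKM in cardiomyocytes, against 221, 207 and 211 FPKM in fibroblasts.

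All 17 tested collagen chains, of 29 listed, were called lower, against 37.2% of all genes. Of these chains, 10 were lower by at least 2 log2 units, against 7.84% of all genes. Col1a1 and Col1a2, the chains of type I collagen, fell by 3.13 and 3.15 on the log2 scale. Col3a1 had 3.20, 3.58 and 1.70 FPKM in cardiomyocytes, against 28.8, 33.9 and 13.1 FPKM in fibroblasts, and fibroblast library 3 was the lowest of its group. Col6a1, of the microfibril-forming type VI collagen, had 4.15, 2.76 and 2.18 FPKM in cardiomyocytes, against 47.8, 38.4 and 38.0 FPKM in fibroblasts. The basement membrane chain Col4a1 had 6.79, 7.11 and 7.13 FPKM in cardiomyocytes, against 32.7, 25.6 and 25.9 FPKM in fibroblasts. Its mean level in cardiomyocytes was the highest of the 17. Among other matrix genes, 45 of 46 were called lower and 1, the vitronectin gene Vtn, higher (0.55 ± 0.18); the call for Vtn was lost without cardiomyocyte library 2 (limma adjusted p = 0.0526), cardiomyocyte library 3 (0.0662) or fibroblast library 1 (0.0795), and without the length and GC trend (0.176), and Vtn turned to -0.12 on equal sums. Thbs1, an activator of latent TGF beta, had 4.93, 0.789 and 0.992 FPKM in cardiomyocytes, against 495, 164 and 397 FPKM in fibroblasts. The proteoglycan Bgn had 21.9, 13.1 and 10.2 FPKM in cardiomyocytes, against 287, 235 and 256 FPKM in fibroblasts, the calcification inhibitor Mgp 84.2, 84.7 and 51.5 FPKM in cardiomyocytes, against 294.9, 367 and 389 FPKM in fibroblasts, and the matricellular gene Ctgf 12.3, 5.30 and 12.4 FPKM in cardiomyocytes, against 275, 139 and 267 FPKM in fibroblasts. Mgp had the highest mean level of the 46 in cardiomyocytes, and Thbs1 and Mgp the highest in fibroblasts. With the length and GC trend removed, 16 collagen chains and 45 other matrix genes were called lower.

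Of the matrix remodelling genes, 30 of 35 were called lower and 2 higher, beside 37.2% and 41.1% over all genes. Plau, a plasminogen activator, had 1.19, 0.971 and 0.541 FPKM in cardiomyocytes, against 51.8, 27.3 and 38.0 FPKM in fibroblasts. The gelatinase Mmp2 had 4.56, 2.87 and 2.01 FPKM in cardiomyocytes, against 65.2, 49.2 and 63.1 FPKM in fibroblasts, and Mmp14, which activates it, had 0.792, 0.5999 and 0.658 FPKM in cardiomyocytes, against 17.6, 10.2 and 19.2 FPKM in fibroblasts. Of the tissue inhibitors of metalloproteinases, Timp1 (-3.04 ± 0.35) and Timp2 (-3.63 ± 0.26) were lower, while Timp4 was higher, with 8.00, 14.7 and 10.1 FPKM in cardiomyocytes, against 1.91, 3.93 and 2.93 FPKM in fibroblasts. Mmp15, a membrane metalloproteinase, was the other gene that rose (1.79 ± 0.14). Serpinh1, the collagen chaperone, had 41.7, 38.3 and 51.7 FPKM in cardiomyocytes, against 59.2, 49.0 and 83.2 FPKM in fibroblasts, and did not pass (limma adjusted p = 0.114) except without fibroblast library 2 (0.033) or on equal sums (4.83e-05).

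Growth factors and their receptors were mostly on the fibroblast side, with 45 of 55 tested genes lower and 8 higher. Over all genes, 37.2% were called lower and 41.1% higher. Ligands high in fibroblasts were Il6 (4.57, 0.322 and 0.363 FPKM in cardiomyocytes, against 242, 54.3 and 247 FPKM in fibroblasts), Lif (0.649, 0.0590 and 0.0610 FPKM in cardiomyocytes, against 35.3, 8.57 and 36.2 FPKM in fibroblasts) and Gdf15 (3.01, 0.430 and 0.678 FPKM in cardiomyocytes, against 41.8, 23.7 and 40.4 FPKM in fibroblasts). Il6 and Lif are ligands of receptors that share gp130, and Gdf15 is a stress-induced member of the TGF beta family. In all 3, cardiomyocyte library 1 was higher than libraries 2 and 3, and fibroblast library 2 lower than libraries 1 and 3. The receptor Fgfr1 had 1.42, 0.764 and 0.502 FPKM in cardiomyocytes, against 49.99, 18.7 and 59.0 FPKM in fibroblasts. Cardiomyocytes were higher for other ligands: Vegfb, which acts on endothelial cells, had 47.5, 50.8 and 67.8 FPKM in cardiomyocytes, against 1.78, 1.75 and 2.62 FPKM in fibroblasts, and Fgf1 had 8.98, 8.83 and 12.3 FPKM in cardiomyocytes, against 0.248, 0.0890 and 0.340 FPKM in fibroblasts. Fndc5, the precursor of the secreted peptide irisin, rose by 4.33 ± 0.23. Cxcl12, a chemokine that retains progenitor cells, had 6.22, 10.5 and 8.86 FPKM in cardiomyocytes, against 8.50, 11.5 and 9.22 FPKM in fibroblasts, and did not pass on FPKM (limma adjusted p = 0.462), though it did on equal sums (0.00434).

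Chemokines, cytokines and complement had the most negative median of the lists, -3.32. In cardiomyocytes 40 of 43 genes were lower, 32 of them by at least 2 log2 units, beside 37.2% and 7.84% over all genes. The neutrophil attractant Cxcl1 had 27.4, 3.24 and 2.72 FPKM in cardiomyocytes, against 1825, 407 and 1539.9 FPKM in fibroblasts, the largest fall named here (-7.10 ± 1.001). The monocyte attractant Ccl2 had 42.99, 3.93 and 2.76 FPKM in cardiomyocytes, against 1164, 303 and 1490.1 FPKM in fibroblasts, and the macrophage growth factor Csf1 had 6.21, 1.98 and 2.41 FPKM in cardiomyocytes, against 296, 65.7 and 317 FPKM in fibroblasts. Cell types did not overlap, but libraries of one type differed by several fold. Summed over the 43 genes, cardiomyocyte libraries held 428, 238 and 208 FPKM, and fibroblast libraries 6888, 2349 and 7261 FPKM. Cxcl2 had 20.6, 2.65 and 1.56 FPKM in cardiomyocytes, against 533, 195 and 398 FPKM in fibroblasts, and Ccl4, which macrophages also make, had 25.4, 0.700 and 0.966 FPKM in cardiomyocytes, against 319.7, 153 and 253 FPKM in fibroblasts. The monocyte receptor gene Cd14 had 15.5, 3.56 and 3.02 FPKM in cardiomyocytes, against 134, 87.8 and 165 FPKM in fibroblasts, highest in the same cardiomyocyte library. Its part in the chemokine difference was not tested. With the libraries numbered 2 left out of both types, Ccl2 (limma adjusted p = 0.0618), Ccl4 (0.104) and Cxcl2 (0.0585) no longer passed. Outside this list, the prostaglandin synthase Ptgs2 had 2.65, 0.177 and 0.325 FPKM in cardiomyocytes, against 199.6, 45.1 and 179.6 FPKM in fibroblasts, and the adhesion molecule Icam1 had 5.07, 1.83 and 1.16 FPKM in cardiomyocytes, against 177, 102.3 and 196 FPKM in fibroblasts. Exceptions were the complement regulators Cd59a, with 25.1, 24.5 and 20.02 FPKM in cardiomyocytes, against 0.612, 1.08 and 0.699 FPKM in fibroblasts, and clusterin (Clu), with 62.7, 72.5 and 103 FPKM in cardiomyocytes, against 5.29, 5.88 and 6.30 FPKM in fibroblasts, both higher in cardiomyocytes.

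Chemokine promoters are shown because Cxcl1, Cxcl2 and Cxcl10 were among the 15 largest falls. The windows, from the same RefSeq set, were searched on both strands for kappa B sites, to which NF-kappa B factors bind, for the AP-1 site (TGACTCA or TGAGTCA) and for TATAAA, and matches are in capitals.
Cxcl1 (chr5:90890995-90891294, plus strand): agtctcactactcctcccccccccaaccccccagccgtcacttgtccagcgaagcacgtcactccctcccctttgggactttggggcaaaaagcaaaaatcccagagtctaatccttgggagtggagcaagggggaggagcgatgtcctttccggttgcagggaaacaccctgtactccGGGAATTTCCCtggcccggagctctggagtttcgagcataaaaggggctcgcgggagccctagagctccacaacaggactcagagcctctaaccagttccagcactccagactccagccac
Cxcl2 (chr5:90903649-90903948, plus strand): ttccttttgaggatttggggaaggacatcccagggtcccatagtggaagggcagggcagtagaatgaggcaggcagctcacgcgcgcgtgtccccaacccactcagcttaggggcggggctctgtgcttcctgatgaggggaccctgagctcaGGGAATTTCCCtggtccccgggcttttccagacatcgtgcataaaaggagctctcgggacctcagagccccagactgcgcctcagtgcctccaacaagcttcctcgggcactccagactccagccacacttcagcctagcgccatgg
Cxcl10 (chr5:92348840-92349139, minus strand): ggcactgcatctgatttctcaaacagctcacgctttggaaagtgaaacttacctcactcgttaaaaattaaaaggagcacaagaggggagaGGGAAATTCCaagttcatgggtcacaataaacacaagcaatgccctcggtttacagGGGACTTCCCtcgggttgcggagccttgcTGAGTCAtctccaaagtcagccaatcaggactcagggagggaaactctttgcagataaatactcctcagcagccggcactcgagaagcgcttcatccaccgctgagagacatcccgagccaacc
The capitals in Cxcl1 and Cxcl2 mark the same kappa B letters, read on both strands with an overlap, starting at -71 in Cxcl1 and at -97 in Cxcl2. In Cxcl10 they mark kappa B matches at -159 and -103 and an AP-1 match at -74. A window of the fibroblast gene Tcf21, searched in the same way, held no match. Kappa B matches were present in 23.3% of the 30 windows found for 28 of the 43 genes, against 4.51% of all promoter windows. The share was 10.9% for genes lower by at least 2 log2 units and 4.68% for genes higher by as much. It was also 10.9% for the sarcomere windows, all of genes that were higher, and 13.6% for immediate early and isolation stress genes. TATA matches were present in 12 of the 30 chemokine windows, against 13.6% of all windows, and AP-1 matches in 16.7% against 5.20%. AP-1 matches were present in 6 of the 46 sarcomere windows. Over the windows of all genes tested, the shares were 5.36% for kappa B, 8.09% for TATA and 4.12% for AP-1.

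Immediate early and isolation stress genes, which respond quickly to tissue handling, were lower as well: 26 of 36 were called lower and 3 higher, with a median of -1.69. Myc had 2.10, 0.440 and 0.301 FPKM in cardiomyocytes, against 55.8, 47.8 and 56.2 FPKM in fibroblasts, and Fosl1, an AP-1 subunit, had 0.504, 0 and 0.0189 FPKM in cardiomyocytes, against 27.4, 16.0 and 36.2 FPKM in fibroblasts. Egr1 had 26.1, 15.5 and 28.7 FPKM in cardiomyocytes, against 84.4, 198 and 67.4 FPKM in fibroblasts, and fibroblast library 2 was the highest of its group, opposite to its chemokine levels. Fos, at 28.0, 24.9 and 36.2 FPKM in cardiomyocytes, against 20.8, 46.9 and 12.8 FPKM in fibroblasts, did not pass with all libraries but was called higher without fibroblast library 2 (limma adjusted p = 0.00994). Dusp1 rose by 0.95 ± 0.28, a call that was lost without cardiomyocyte library 3 (0.0503), without fibroblast library 1 (0.0608) and on equal sums (0.906). Of 42 genes for metallothioneins, NRF2 targets and antioxidant enzymes, 18 were called higher and 17 lower, close to the 41.1% and 37.2% over all genes. On equal sums 14 were higher and 24 lower, with a median of -1.07, against -0.17 on FPKM. Over all 9245 genes, equal sums gave 2575 higher and 5013 lower and a median of -0.59. The mitochondrial and peroxide-reducing enzymes Gpx4 (4.33 ± 0.29), Prdx5 (3.95 ± 0.30) and Prdx3 (3.67 ± 0.30) were higher. Hmox1, the haem-degrading enzyme induced by oxidants, had 11.2, 1.91 and 2.57 FPKM in cardiomyocytes, against 235, 227 and 642 FPKM in fibroblasts, and Mt2 had 23.2, 13.7 and 10.9 FPKM in cardiomyocytes, against 296, 174 and 341 FPKM in fibroblasts. These genes did not overlap. Txnrd1 (-3.64 ± 0.29) and Srxn1 (-3.36 ± 0.40), targets of NRF2, were lower too.

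Load-responsive muscle genes were higher in 16 of 21 tested and lower in 2, beside 41.1% and 37.2% over all genes. Nppb, the B-type natriuretic peptide, had 401, 197 and 425 FPKM in cardiomyocytes, against 1.73, 0.303 and 4.12 FPKM in fibroblasts. Nppa, the atrial peptide, had 9.43, 6.13 and 58.2 FPKM in cardiomyocytes, against 0.616, 0.773 and 3.61 FPKM in fibroblasts, and cardiomyocyte library 3 stood far above the other cardiomyocyte libraries. Its difference of 2.79 ± 0.95 had a limma adjusted p of 0.0408, and it did not pass without cardiomyocyte library 1 (0.0608) or without fibroblast library 1, 2 or 3 (0.117, 0.156 and 0.063). Nor did it pass without the length and GC trend (1.97, adjusted p = 0.0876) or on equal sums (2.14, adjusted p = 0.0585). Of the other atrial markers, Myl7 (0.946, 1.04 and 1.70 FPKM in cardiomyocytes) and Sln (0.133, 1.24 and 1.40 FPKM) stayed low while Myl4 had 703, 426 and 569 FPKM in cardiomyocytes; Myl4 resembles other essential light chain genes, and its reads may be shared. Cytosolic ribosomal protein genes and cytoskeletal genes take no direction. The 56 ribosomal genes had a median of 0.53 on FPKM, -0.39 on equal sums and -0.19 without the length and GC trend. The 41 nonmuscle and smooth muscle cytoskeleton genes had medians of 0.30, -0.37 and -0.43 on the same scales.

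Cardiomyocytes were also set beside the fibroblasts of operated and exercised mice. All of these comparisons use the same 3 cardiomyocyte libraries, and they were not tested against each other. For the sarcomere the median difference was 4.75 against sedentary, 4.53 against sham, 4.46 against MI, 4.76 and 4.22 against 3 and 10 day TAC, and 5.00 and 4.96 against 4 and 10 day swim fibroblasts. The collagen median was -2.46 against sedentary, -3.78 against MI, -2.98 against 10 day TAC and -1.37 against 4 day swim fibroblasts. Chemokines and complement gave -3.32 against sedentary, -3.89 against sham and -1.45 against 10 day TAC fibroblasts. Sarcomere values thus changed little with the fibroblast group, while collagen and chemokine values moved by over 2 log2 units.

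**Figure D5:**
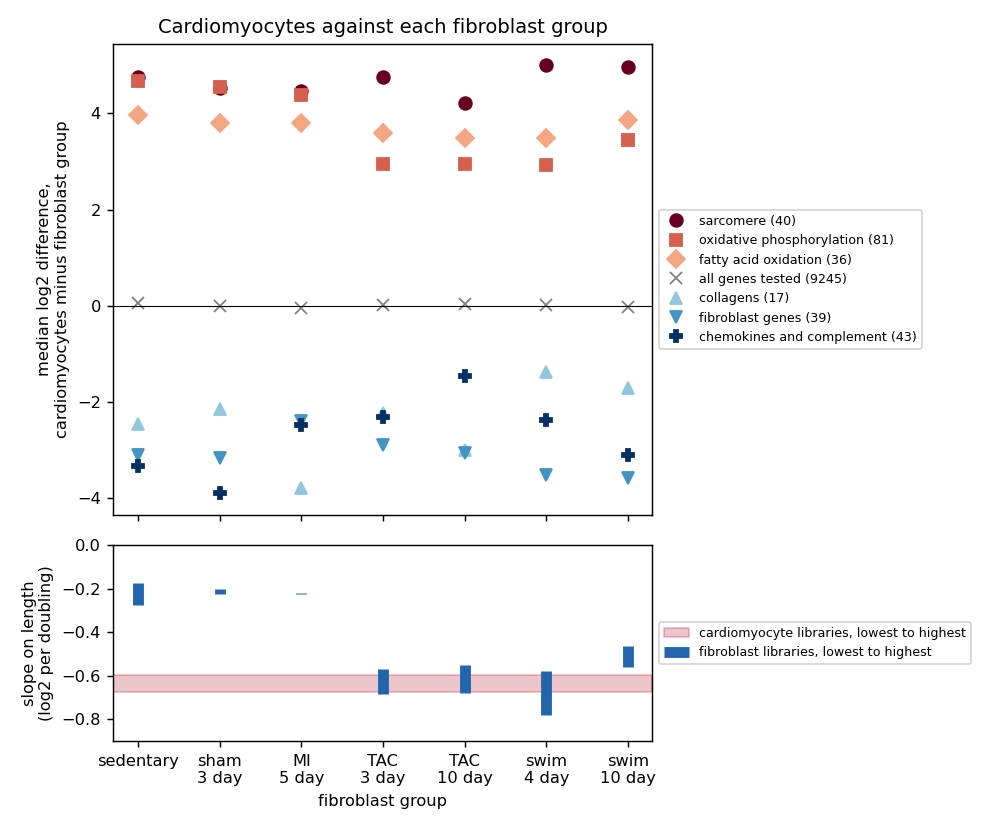
Top: median log2 difference between the 3 sedentary cardiomyocyte libraries and each fibroblast group for 6 gene lists and for all genes tested, with list sizes in brackets; the sedentary group is the comparison of this text. Bottom: slope of log2 expression on transcript length, as the range of libraries in each fibroblast group (blue bars) and in cardiomyocytes (red band, -0.67 to -0.60). Respiratory chain differences are smaller against TAC and swim fibroblasts, whose slopes lie near the red band.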

How the data were processed

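The deposited table gives FPKM per gene and library, made by the authors from poly-A RNA in stranded libraries, per the labels' protocols. Cufflinks 2.0.2 and the mouse build mm10 are named in the submitters' processing notes; aligner: not given in the sources used here, and the same holds for the annotation. Joined symbols stayed as 1 row, 26 of 27 date-like symbols were mapped back through their position, and 44 columns of confidence bounds were not used. The authors' deposited table of comparisons gave q-values, which entered the counts credited to it only.

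Values were tested as log2(FPKM + 1), a scale that understates the change of low genes, with limma 3.58.1 in R 4.3.3 (trend and robust settings, no block) over the 6 sedentary libraries. Genes needed at least 1 FPKM in at least 2 of the 6 libraries. A gene under this level in all libraries of one cell type entered only through the other, so the filter largely set its direction. Calls used a Benjamini-Hochberg adjusted p under 0.05 over the 9245 genes tested, and log2 fold changes are cardiomyocytes minus fibroblasts, ± SE. The script was tested on simulated data. No read counts were used, so no counting intervals were computed; absolute depth is unknown.

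Gene lists and members were chosen with earlier results of these data known. Named genes were the markers, the 15 largest rises and 15 largest falls, up to 8 called members of a list in each direction, up to 4 at the highest level, up to 4 that did not pass or went against their list, and all members of the gene pairs. Alternatives covered the replicate block, all 22 libraries in 1 fit, a pseudocount of 0.1, and no filter or one of 3 libraries. They also covered scaling to equal sums with and without ribosomal RNA or to equal medians, each library left out, and the authors' own comparison. A further alternative removed a trend on transcript length and GC content (splines, 4 degrees of freedom, with GENCODE lengths for 23015 of 23359 genes). The block with that trend removed and the fit without libraries 2 were chosen after seeing the data. Library length slopes and relative depth were read from the FPKM values. Promoter sequences come from RefSeq on GRCm38.p6. Some items that the rule would name are not reported here.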

Additional observations from a re-analysis of the deposited data

How the results depend on the processing

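Counts of genes called higher and lower, and of those past 2 log2 units, moved by less than 1.5 times under all alternatives except these. Without a filter on low values, 5329 genes were lower. With a pseudocount of 0.1, 1972 genes were at least 2 log2 units higher and 1504 lower. On equal sums these were 705 and 1384, and 707 and 1374 with ribosomal RNA left out. Leaving out 1 library at a time gave 3530 to 3936 higher and 3085 to 3676 lower genes, and 1115 to 1208 and 646 to 839 past 2 log2 units. With the replicate block, 3862 genes were higher and 3492 lower, 1144 and 712 of them past 2 log2 units. The correlation of deviations from the group means was 0.243, 0.312 and 0.0558 for libraries of the same number. For different numbers it was -0.219 and 0.0859 with cardiomyocyte library 1, -0.271 and -0.173 with library 2, and -0.0183 and -0.0385 with library 3. Cardiomyocyte libraries correlated best with the fibroblast library of their own number, but fibroblast library 3 did so with cardiomyocyte library 1 (0.0859). The main fit did not take the numbers as pairs, while the replicate block did. What libraries of the same number share was not tested.

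Of 173 named genes that were followed under the alternatives, 161 were called, and 140 of these kept call and direction under every alternative. Directions reversed on equal sums, with and without ribosomal RNA, for Cdkn1b (-0.22 and -0.21), Ctnna1 (-0.28 and -0.27), Esam (-0.27 and -0.27), Flnc (-0.024 and -0.016), Mef2d (-0.81 and -0.80) and Vtn (-0.12 and -0.11), which follows the shift of all genes. Without the length and GC trend, with or without the replicate block, they reversed for Ctnna1 (-0.076), Eno1 (-0.86), Esam (-0.36) and Myl7 (-0.0089); the cause was not tested. Low genes are limited by the coarser FPKM steps of the cardiomyocyte libraries, and 3 libraries a type limit every error estimate.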

Other observations

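Of 14 tested circadian clock and output genes, 8 were called lower and 2 higher in cardiomyocytes, beside 37.2% lower and 41.1% higher over all genes. With the length and GC trend removed 5 were lower and 2 higher, and the median was -0.16, against -0.43 on FPKM. Of all 9189 genes on that scale, 3676 were lower and 3401 higher. The repressor gene Bhlhe40 had 5.12, 5.03 and 3.98 FPKM in cardiomyocytes, against 30.4, 46.0 and 15.1 FPKM in fibroblasts. Dbp, an output gene with a strong daily rhythm, had 9.28, 19.5 and 2.63 FPKM in cardiomyocytes, against 4.00, 10.1 and 1.04 FPKM in fibroblasts. Its libraries of one number moved together in both cell types, libraries 2 being the highest and libraries 3 the lowest, and the difference between cell types did not pass (limma adjusted p = 0.391), although it did with the replicate block (0.000761). Over all 9245 genes, 1967 (21.3%) had the same order of the 3 numbers in both cell types, and 16.7% is the share that the number of possible orders gives.

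Haemoglobin followed the library number more than the cell type. Hba-a1 had 34.0, 2002 and 60.04 FPKM in cardiomyocytes, against 29.4, 4201 and 934 FPKM in fibroblasts, so libraries 2 were the highest of each type by far. The 3 tested red cell markers gave no call in either direction. The part of red cell RNA in other differences was not tested.

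Of 31 listed cell cycle genes, 10 reached the filter, beside 39.6% of all genes in the table. Of these 10, 5 were lower and 1 was higher in cardiomyocytes, beside 37.2% and 41.1% over all genes. On equal sums 8 were lower and none higher, beside 5013 lower and 2575 higher of all 9245 genes. Pcna, the sliding clamp of DNA replication, had 10.6, 9.16 and 8.98 FPKM in cardiomyocytes, against 29.0, 17.4 and 42.0 FPKM in fibroblasts. Cdkn1a, an inhibitor of cyclin-dependent kinases, had 6.49, 2.52 and 7.17 FPKM in cardiomyocytes, against 61.3, 34.5 and 102.2 FPKM in fibroblasts, with no overlap, and the related inhibitor Cdkn1b had 4.14, 5.32 and 5.27 FPKM in cardiomyocytes, against 2.90, 3.30 and 3.01 FPKM in fibroblasts. The call for Cdkn1b was lost without cardiomyocyte library 2 (limma adjusted p = 0.0659) and without fibroblast library 1 (0.0606), and its sign turned on equal sums (-0.22).

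Among endothelial markers, the 2 genes that were higher in cardiomyocytes were Egfl7, at 15.4, 18.5 and 7.29 FPKM in cardiomyocytes, against 3.10, 4.80 and 2.86 FPKM in fibroblasts, and Esam, at 5.51, 8.89 and 8.61 FPKM in cardiomyocytes, against 3.95, 5.44 and 5.34 FPKM in fibroblasts. The call for Egfl7 was lost on equal sums (limma adjusted p = 0.0801), and that for Esam without cardiomyocyte library 2 (0.177), cardiomyocyte library 3 (0.143) or fibroblast library 1 (0.185). Esam changed sign on equal sums (-0.27) and without the length and GC trend (-0.36), and Egfl7 did not pass without that trend either (0.0909). With the replicate block, 3 of the 10 endothelial markers were higher and 5 lower. Vwf, stored in endothelial granules, had 0.771, 0.973 and 0.676 FPKM in cardiomyocytes, against 5.81, 9.20 and 4.73 FPKM in fibroblasts, without overlap. Macrophage genes kept measurable levels in cardiomyocyte libraries, with Lyz2 at 132, 110.1 and 43.7 FPKM in cardiomyocytes, against 253, 246 and 283 FPKM in fibroblasts.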
